A study of Mus musculus with 12 samples.

Results

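The comparison set YFP+ natural killer (NK) cells, sorted after 6 h with an antibody against the receptor NK1.1, against unstimulated NK cells. Its members were the 4 YFP+ and the 4 unstimulated samples of a series of 12, and the genes with a log2 CPM (CPM, the reads of a gene scaled to the library total) above 0 in at least 4 of the 12 samples, which were 12364 of 55487 features. All mice carried the reporter strain B6.129S4-Ifngtm3.1Lky/J, given as mut/mut, in which a yellow fluorescent protein marks cells that use the interferon gamma gene; every group shared this allele and the label HD IL-15, and no group without the allele was analysed here. The 4 remaining samples were stimulated cells without reporter signal (YFP-), and are used here only as a further level beside the 2 groups compared. The unstimulated samples carry no reporter gate in their labels, so stimulation and selection for reporter signal cannot be told apart. No time is listed for them either, so time in culture cannot be told apart from stimulation. Each group had 1 sample labelled F (f2) and 3 labelled M (m2, m3 and m4); mouse age is not given, and nothing in the labels says that samples came from separate animals, so p-values measure only the spread between these samples.

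NK cells are innate lymphocytes that kill target cells with perforin and granzymes and secrete interferon gamma and chemokines. NK1.1, the product of Klrb1c, is an activating receptor that signals through adaptor chains such as the Fc receptor gamma chain (Fcer1g). Such signals reach the NFAT, AP-1 and NF-kappaB transcription factors, while IL-15 sustains NK cell survival, growth and metabolism. Interferon gamma acts back on many cells through its receptor (Ifngr1, Ifngr2) to raise interferon-stimulated genes and antigen presentation.

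Library totals ran from 32.1 to 54.2 M reads over the 8 samples, so that 3 reads, the least taken as measurable, correspond to 0.0553 to 0.0933 CPM. Reads on ribosomal RNA and similar features made up 30.7 ± 3.38% of unstimulated and 20.7 ± 7.22% of YFP+ reads (SD, n = 4 each; exact permutation p = 0.086, two-sided). Within YFP+, m3 stood apart: it had 29.8% such reads and the lowest weight (0.267) of all 12 samples when samples were weighted by their spread. The median SD of a gene was 0.21 in log2 among unstimulated and 0.34 among YFP+ samples. NK cell markers were abundant (Nkg7, Ncr1, Klrd1 and the other 8 markers were all tested): of 11 markers 2 rose and 6 fell, with a median of -0.96 in log2, and the list held 1.69 ± 0.128% of unstimulated and 1.35 ± 0.25% of YFP+ reads. Of 12 T cell markers, 6 were tested: Cd6, Trac, Trbc2 and Lat rose, Cd3d and Cd3g fell, and Cd3e, Cd4, Cd8a, Cd8b1 and Themis stayed below 1 CPM in all 8 libraries. Cd5, the remaining marker, did not pass the filter. The T cell list summed to 0.0292 ± 0.00381% of unstimulated and 0.0475 ± 0.00281% of YFP+ reads. B cell, myeloid, dendritic cell and erythroid lists each took at most 0.0153% of reads in either group, with Csf1r, Flt3 and Hba-a1 below 1 CPM in all 8 libraries. Few of their members were tested: 1 of 2 B cell markers fell, both of 2 myeloid markers fell, 1 of 5 dendritic cell markers rose and 2 fell, and no erythroid marker passed the filter. The tested dendritic cell markers had a median difference of 0.04 in log2 and ran from -3.1 to 2.43. Of those that fell, the class II gene H2-Ab1, named after its values were seen, went from 80.9, 94.02, 88.9 and 94.7 CPM to 8.62, 12.2, 9.75 and 11.6 CPM in f2, m2, m3 and m4. Of 7 tested markers of type 1 innate lymphoid cells (ILC1), 1 rose and 4 fell. The part of other cell types, of rRNA-like reads and of m3 in the results was not tested.

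Of the 12364 genes tested, 7522 (60.8%) passed the call used throughout (limma, Benjamini-Hochberg adjusted p under 0.05). YFP+ samples were higher for 3400 of them (27.5%) and lower for 4122 (33.3%). A difference of at least 2-fold was added to the call for 1826 genes higher (14.8%) and 2721 lower (22.0%). The counts of each list are to be read against these shares. The median difference over all genes was -0.03 in log2. Centring each sample on its median moved that median to 0.10, and leaving ribosomal RNA-like reads out of the totals moved it to -0.22; changes smaller than this shift depend on the scale chosen. Fewer genes rose than fell by at least 2 (585 and 1104) and by at least 3 (241 and 341) in log2. The order was reversed at 4 (149 and 116) and at 5 (99 and 42). At most 3 reads in every unstimulated library were found for 30 tested genes, and all 30 were called higher. As few in every YFP+ library were found for 6 tested genes, of which 5 were called lower. Such genes could pass the filter only through the other groups, so their direction was largely fixed in advance. The 2 counts are therefore no result about direction. The size of the log2 difference of such genes depends on the 0.5 reads added as a prior. Differences from bulk RNA do not separate fewer cells of a kind from less RNA per cell.

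**Figure D1:**
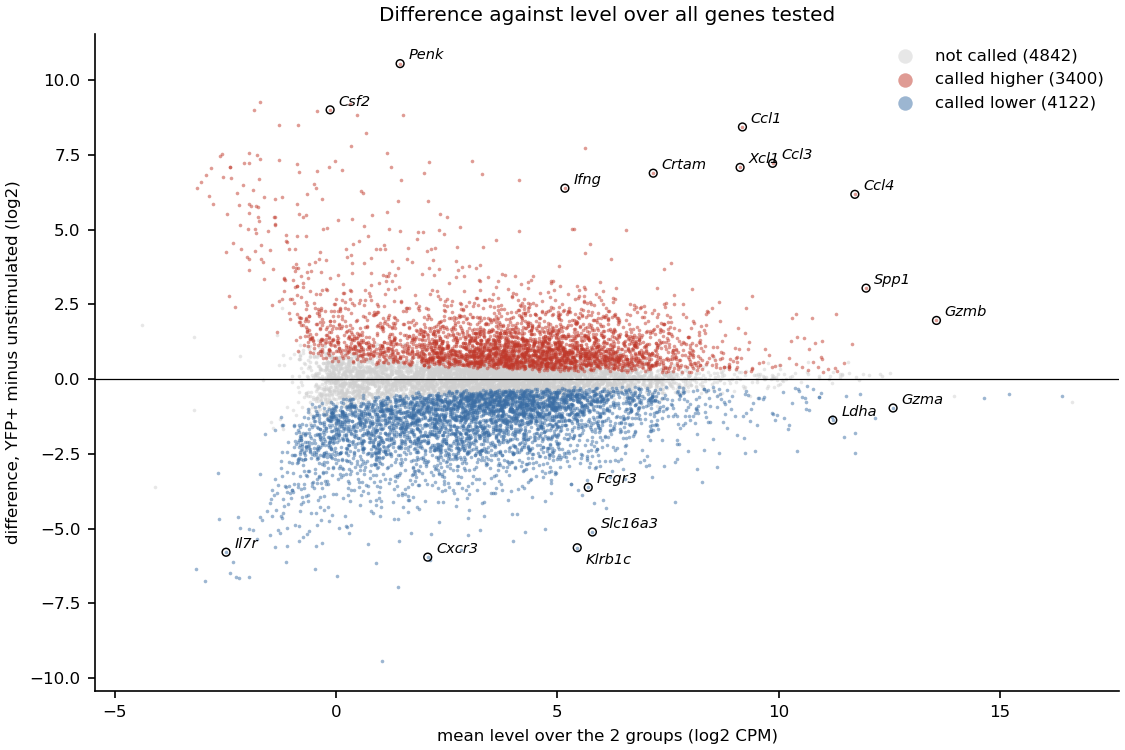
Difference in log2 between YFP+ and unstimulated samples (vertical axis) against the mean level over the 2 groups in log2 CPM (horizontal axis), 1 point per gene tested, coloured by call. Chemokine genes and Ifng combine a high level with differences above 6, while Klrb1c and Slc16a3 lie more than 5 below 0.

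Secreted mediators had the highest median difference of the 29 gene lists. Of 28 tested cytokine and chemokine genes, 20 rose and 3 fell, with a median difference of 3.44 in log2, against 27.5% and 33.3% of all tested genes called in each direction. The whole list of 40 genes took 0.378 ± 0.0359% of unstimulated reads (SD, n = 4) and 7.33 ± 0.409% of YFP+ reads, a ratio of 19.4 (exact permutation p = 0.029, two-sided, the smallest that 4 against 4 allows; 0.037 adjusted over 36 lists). Most of the 36 lists reached this smallest p, the T cell and myeloid marker lists among them. The lists were chosen with earlier results of these data known, so p-values of list shares give no independent support. Below, they are printed unadjusted. The macrophage inflammatory protein genes Ccl3, Ccl4 and Ccl9 and the related Ccl1 encode chemokines that draw monocytes and lymphocytes. They lie on chromosome 11 of the mouse, with Ccl9 at chr11:83572919-83578636, Ccl3 at chr11:83647844-83649355, Ccl4 at chr11:83662584-83664683 and Ccl1 at chr11:82176657-82305690 (GENCODE M21, GRCm38).

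Values by sample are in CPM, in the order f2, m2, m3 and m4. Ccl4 read 407, 358, 342 and 493 CPM in unstimulated and 27722, 26193, 27807 and 33922 CPM in YFP+ samples. Ccl3 went from 77.8, 71.7, 71.04 and 85.02 CPM to 11362, 10359, 12056 and 11708 CPM, a log2 difference of 7.22 ± 0.12 (SE; limma adjusted p = 1.1e-13). For both chemokines every YFP+ library lay far above every unstimulated library. Ccl1 was at 30.2, 27.1, 24.4 and 47.1 CPM and then at 9417, 10556, 12131 and 11243 CPM, the largest rise among genes with a mean log2 CPM of at least 2 (8.44 ± 0.19; adjusted p = 1.9e-12, limma). Ccl9 rose by 7.73 ± 0.18, and Xcl1, which attracts cross-presenting dendritic cells, by 7.08 ± 0.19. These genes did not move as one block with every chemokine. Ccl5 read 1118, 1260.3, 962 and 2229.5 CPM in unstimulated and 1704, 1614, 1877 and 2875 CPM in YFP+ samples. Its difference of 0.57 ± 0.28 did not pass (adjusted p = 0.092, limma).

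Ifng, the gene that carries the reporter (chr10:118441046-118445892), read 4.04, 3.79, 3.67 and 4.19 CPM in unstimulated and 341, 328, 304 and 343 CPM in YFP+ samples. Its rise of 6.39 ± 0.13 in log2 (adjusted p = 9.1e-13, limma) had a narrow spread in both groups. The sort was made on this locus, so its rise is no independent finding. In YFP- samples, stimulated but without reporter signal, Ifng read 44.8, 54.5, 36.6 and 47.2 CPM. Tnf, another inflammatory cytokine, went from 3.23, 3.39, 3.87 and 2.31 CPM to 104, 103, 74.97 and 113 CPM (4.95 ± 0.17). Spp1, which encodes the secreted phosphoprotein osteopontin, was abundant in unstimulated samples at 1625, 1764, 1520.1 and 881 CPM. It read 14910, 14263, 8508 and 9845 CPM in YFP+ samples (3.04 ± 0.24). The lymphotoxin beta gene Ltb went the other way, from 71.7, 78.2, 68.6 and 122 CPM to 5.97, 13.2, 10.2 and 10.5 CPM (-3.1 ± 0.23; adjusted p = 9.6e-08, limma). The other 2 members that fell, named after their values were seen, were Flt3l (-2.23) and Il16 (-0.88).

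Some mediators were close to silent in the unstimulated samples. Penk, the proenkephalin gene that encodes opioid peptides, had 4, 2, 0 and 8 reads in the unstimulated libraries and 9662, 5391, 2379 and 3078 reads in the YFP+ libraries, a ratio of summed levels of 1268 (95% exact interval 755 to 2319). Csf2, which encodes the growth factor GM-CSF, had 0, 0, 6 and 3 and 688, 769, 1028 and 1021 reads, a ratio of 337 (95% exact interval 177 to 738). These intervals cover counting error only, and whether PCR copies were removed is not given in the sources used here. Penk at 197, 99.4, 65.7 and 95.8 CPM varied more between YFP+ libraries than Ifng did, with f2 the highest.

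**Figure D2:**
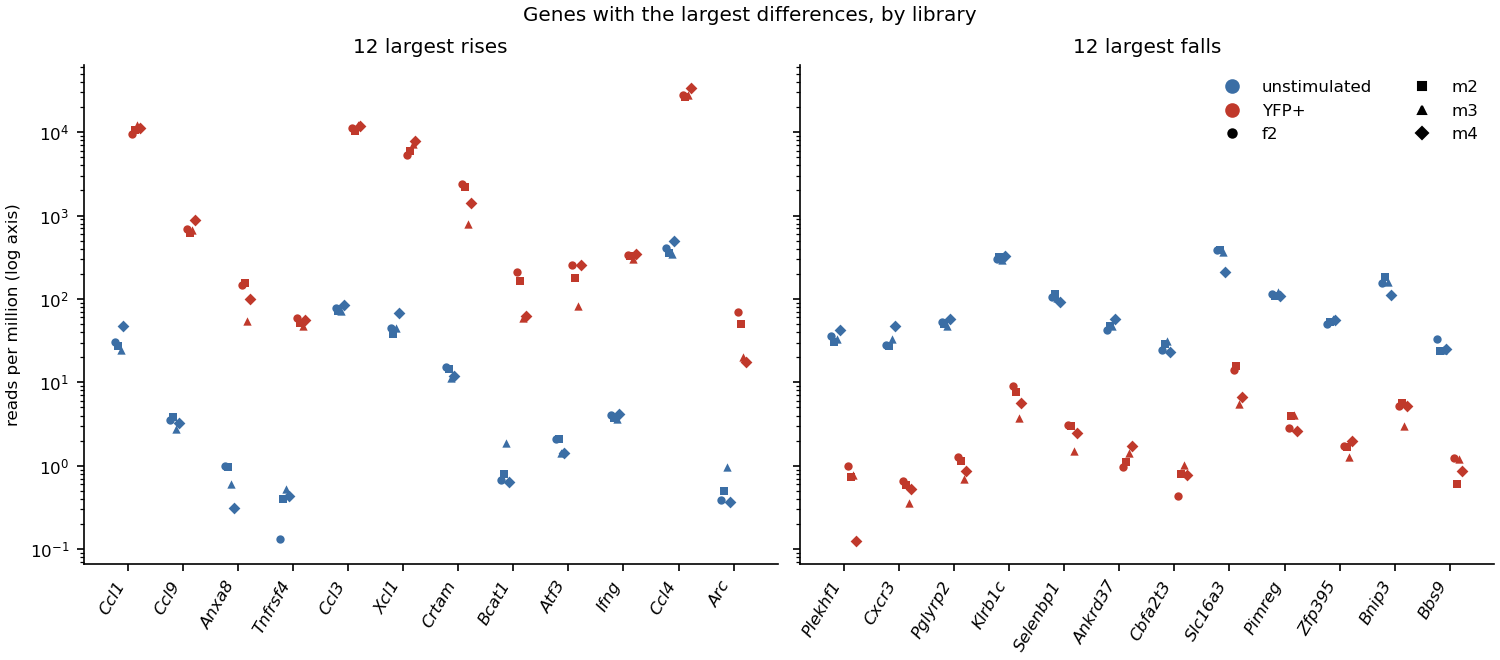
CPM (log axis) in each of the 4 unstimulated (blue) and 4 YFP+ (red) libraries for the 12 largest rises and 12 largest falls among genes with a mean log2 CPM of at least 2; marker shapes give the sample label. The groups do not overlap for any of the 24 genes, which follows from picking them by the size of the difference. Over all 12364 genes tested, the groups do not overlap for 2965 genes higher and 3804 lower in YFP+. The YFP+ values of Crtam, Anxa8, Bcat1 and Arc spread more widely than those of Ccl3 or Ifng.

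Promoter windows of 250 bases before the start were read from RefSeq (GRCm38.p6) for tested genes, with shares given for several lists. Windows are printed for 3 lists that each have a well known short motif. The AP-1 motif TGANTCA, searched on both strands, stood in 4.29% of 11056 such windows of tested genes and in 5 of 26 windows of cytokine and chemokine genes. It stood in 6.9% of the windows of genes that rose by at least 3 in log2 and in 4.98% of those that fell as much. The interferon response motif GAAANNGAA stood in 6.08% of all windows, in 13 of 30 windows of interferon-stimulated genes and in 6 of 26 windows of cytokine and chemokine genes, 1 more than held AP-1. AP-1 stood in 4 of 30 windows of interferon-stimulated genes. The hypoxia core ACGTG stood in 22.3% of all windows, in 15 of 23 windows of hypoxia response genes and in 12 of 32 windows of glycolysis genes. An E-box CACGTG holds the core on both strands, and was itself found in 8.49% of all windows, in 1 of 37 windows of ribosome biogenesis genes, in 3 of 23 of hypoxia response genes and in 6 of 26 windows of polyamine and nucleotide synthesis genes. A match is a description of letters and not a binding site. These windows belong to the 2 members with the largest called change in each list among those with a match, written 5′ to 3′ on the gene's strand with the matches to the list's own motif in capitals (AP-1 for Ccl9 and Tnfsf14, the interferon motif for Oas3 and Tgtp2, the hypoxia core on either strand for Ankrd37 and Bnip3); matches to the other motifs are left in lower case.
Ccl9 (chr11:83578637-83578886, minus strand): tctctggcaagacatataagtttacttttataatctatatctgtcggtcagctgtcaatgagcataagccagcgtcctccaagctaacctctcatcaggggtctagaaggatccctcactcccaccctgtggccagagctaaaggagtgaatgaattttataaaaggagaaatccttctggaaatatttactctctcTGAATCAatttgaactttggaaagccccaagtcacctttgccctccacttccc
Tnfsf14 (chr17:57194182-57194431, minus strand): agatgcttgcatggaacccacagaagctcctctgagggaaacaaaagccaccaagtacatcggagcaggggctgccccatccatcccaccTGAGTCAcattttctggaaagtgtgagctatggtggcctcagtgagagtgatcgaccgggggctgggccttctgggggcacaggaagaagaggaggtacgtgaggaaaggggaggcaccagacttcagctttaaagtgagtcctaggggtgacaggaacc
Oas3 (chr5:120777660-120777909, minus strand): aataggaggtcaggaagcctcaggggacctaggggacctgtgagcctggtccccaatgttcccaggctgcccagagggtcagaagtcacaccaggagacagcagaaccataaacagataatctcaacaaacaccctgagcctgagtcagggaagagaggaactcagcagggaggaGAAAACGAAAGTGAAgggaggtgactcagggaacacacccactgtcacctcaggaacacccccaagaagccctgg
Tgtp2 (chr11:49064213-49064462, minus strand): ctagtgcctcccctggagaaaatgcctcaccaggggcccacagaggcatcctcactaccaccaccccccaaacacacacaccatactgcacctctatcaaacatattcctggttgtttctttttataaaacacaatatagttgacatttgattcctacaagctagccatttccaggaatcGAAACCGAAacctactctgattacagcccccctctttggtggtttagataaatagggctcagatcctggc
Ankrd37 (chr8:45999851-46000100, minus strand): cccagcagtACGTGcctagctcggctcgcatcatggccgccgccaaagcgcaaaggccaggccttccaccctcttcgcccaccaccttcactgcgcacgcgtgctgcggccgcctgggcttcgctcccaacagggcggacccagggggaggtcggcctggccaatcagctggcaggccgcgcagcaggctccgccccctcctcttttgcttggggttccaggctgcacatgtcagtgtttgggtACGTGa
Bnip3 (chr7:138909507-138909756, minus strand): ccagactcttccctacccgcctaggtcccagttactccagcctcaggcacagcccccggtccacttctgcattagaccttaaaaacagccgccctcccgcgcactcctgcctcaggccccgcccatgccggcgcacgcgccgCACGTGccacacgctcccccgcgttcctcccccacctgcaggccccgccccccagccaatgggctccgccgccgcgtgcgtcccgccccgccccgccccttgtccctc
In this set Ccl9 and the cytokine gene Tnfsf14 rose by 7.73 and 3.42 in log2. The antiviral gene Tgtp2 fell by 3.81, Oas3, another, is given by its reads with the interferon-stimulated genes, and the hypoxia response genes Ankrd37 and Bnip3 fell by 5.21 and 5.01. Tnfsf14 and Tgtp2 were picked by this rule for the windows only.

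The killing machinery changed in part. Of 26 cytotoxic granule genes, 12 rose and 7 fell (median 0.48), and their share of reads went from 2.596 ± 0.231% to 4.98 ± 0.653% (SD, n = 4; exact permutation p = 0.029). Gzmb, the granzyme that activates caspases in target cells, read 6693, 6308, 6540.3 and 5121 CPM in unstimulated and 28337, 23468, 21073 and 23473 CPM in YFP+ samples (1.97 ± 0.11; adjusted p = 9.6e-09, limma). Gzma, a granzyme of other substrate preference, fell from 9203, 9334, 8034 and 7843 CPM to 4773, 4587, 4414 and 3875 CPM (-0.96 ± 0.11; adjusted p = 5.0e-06). Of these 2 messages Gzma was the more abundant in each unstimulated library and Gzmb in each YFP+ library. Gzmc rose by 1.18 and Gzmk fell by 1.82. The pore-forming protein perforin (Prf1) read 2976, 2917, 2647 and 1696 CPM and 5986, 5030.2, 2289 and 2733 CPM, the groups overlapped, and its difference of 0.57 ± 0.28 did not pass (adjusted p = 0.099). Reads of the near-identical Gzm, Serpinb9, Bcl2a1 and Klra family members can be split between copies, so single members are less certain than the family.

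Genes of activating receptors and their adaptors mostly fell: 3 of 23 rose and 14 fell (median -1.01). Klrb1c (chr6:128778485-128789215), which encodes the stimulated receptor itself, read 299, 314, 290.2 and 327 CPM in unstimulated and only 8.97, 7.61, 3.701 and 5.72 CPM in YFP+ samples. This is a fall of 49.7-fold (-5.64 ± 0.23 in log2; adjusted p = 7.1e-10, limma), with all YFP+ libraries far below all unstimulated ones. Fcgr3, the low-affinity Fc receptor of antibody-dependent killing, went from 200.4, 171, 156 and 204 CPM to 19.01, 13.2, 13.1 and 14.5 CPM (-3.62 ± 0.17). Cd226 (DNAM-1), a receptor for nectin-like ligands, fell by 4.28 and the natural cytotoxicity receptor Ncr1 by 1.01. Of the signalling chains, named after their values were seen, Cd247 fell by 2.04 and Fcer1g by 0.44. The exceptions were Crtam, an adhesion receptor of activated cytotoxic cells, which read 15.3, 14.6, 11.3 and 11.8 CPM and then 2392, 2207, 787 and 1429 CPM (6.89 ± 0.28), Cd160 (1.66; named after its value was seen) and the NKG2D gene Klrk1 (0.33), whose call was lost without f2, m2 or m4 of every group. The list's summed share of reads was 0.499 ± 0.0279% and 0.506 ± 0.101% (exact permutation p = 0.94) and overlapped between groups.

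Inhibitory receptors split as well, with 5 of 22 higher and 11 lower. Pdcd1 (PD-1), a checkpoint receptor, had 8, 8, 6 and 0 reads in unstimulated and 461, 466, 169 and 148 reads in YFP+ libraries, a ratio of 48.9 (95% exact interval 32.2 to 78.4). Havcr2 (TIM-3) rose from 9.89, 12.6, 11.9 and 5.49 CPM to 152, 114, 58.8 and 62.5 CPM (3.23 ± 0.37). The checkpoint genes Ctla4 and Lag3 fell by 4.1 and 1.03. The terminal maturation marker Klrg1 fell by 1.97, Klrc1 (NKG2A) rose by 1.11 ± 0.36 with overlapping groups, and Tigit read 127, 117, 92.2 and 93.9 CPM and 162, 116, 70.5 and 109.7 CPM and was not called (0.04 ± 0.22; adjusted p = 0.89, limma). The calls of Klrc1 (without f2 or m2) and Lag3 (without m4) were lost when that label was left out of every group.

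Receptors that guide migration were lower. Among 19 trafficking and adhesion genes 2 rose and 13 fell (median -0.91). Cxcr3, the receptor for interferon-induced chemokines, read 28.04, 27.2, 32.7 and 47.1 CPM in unstimulated and 0.654, 0.5899, 0.359 and 0.529 CPM in YFP+ samples, a summed ratio of 60.7 (95% exact interval 49.5 to 75.2). S1pr5, which lets NK cells leave lymphoid tissue, had 69, 142, 85 and 106 and 10, 20, 3 and 2 reads, a ratio between unstimulated and YFP+ of 13.3 (95% exact interval 9.39 to 19.3). The 2 genes that rose encode activation markers: Cd44 (1.85 ± 0.19) and Cd69 (1.1 ± 0.17), a protein that holds cells in tissue by removing S1PR1. Cd69 read 116, 125, 116 and 114 CPM and 312, 276, 175 and 269.9 CPM, with m3 the lowest YFP+ library. S1pr1 and Cx3cr1 did not pass the filter, with at most 20 and 28 reads in any of the 8 libraries.

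The transcription factors of early activation split into a group that was high at 6 h and a group that was low. Of 32 genes 15 rose and 10 fell. Atf3, a stress-induced leucine zipper factor, rose by 6.66 ± 0.33, from 2.07, 2.104, 1.41 and 1.42 CPM to 255, 176, 82.6 and 254 CPM. Egr2 went from 11.3, 10.8, 9.99 and 12.2 CPM to 388, 287, 189.7 and 199 CPM (4.53 ± 0.28), while its relative Egr1 fell from 87.2, 110.5, 93.1 and 128 CPM to 37.7, 35.9, 37.2 and 47.5 CPM (-1.4 ± 0.16). Irf4 rose by 4.44 ± 0.21, Irf8 by 1.39 ± 0.19, Nr4a3 by 2.55 ± 0.14 and Myc, the growth regulator, by 1.51 ± 0.33. Nr4a1, an immediate early gene of antigen receptor signals, read 13.9, 9.47, 6.2 and 6.597 CPM and 27.5, 28, 7.02 and 10.8 CPM and was not called (0.86 ± 0.41; adjusted p = 0.087, limma). In YFP- samples Nr4a1 read 207, 185, 113 and 190.0 CPM.

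Regulators that set NK lineage and quiescence were lower in 19 of 24 cases and higher in 3 (median -1.19). Eomes, a T-box factor of mature NK cells, fell from 102, 114, 115 and 102 CPM to 38.3, 38.6, 43.04 and 42.8 CPM (-1.41 ± 0.13), while the other T-box factor, Tbx21 (T-bet), rose from 32.8, 32.5, 28.99 and 38.5 CPM to 89.98, 115, 62.8 and 74.4 CPM (1.34 ± 0.18). Zeb2, a zinc finger factor of terminal NK maturation, had the largest rise (2.72 ± 0.17). The quiescence factors Klf2 and Tcf7 fell by 2.63 and 1.96, and Foxo1 by 0.43, a call lost without m4 of every group.

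Cytokine receptors and JAK-STAT genes showed 9 rises and 19 falls among 33. Il2ra (CD25), the chain that makes the IL-2 receptor high-affinity, read 8.71, 6.603, 7.83 and 5.67 CPM in unstimulated and 277, 233, 184 and 232 CPM in YFP+ samples (5.01 ± 0.18; adjusted p = 2.7e-10, limma). The chain shared by IL-2 and IL-15, Il2rb, read 1191, 1056, 1034 and 907 CPM and 1695, 1376, 520.2 and 461 CPM and was not called (-0.27 ± 0.35); its YFP+ values fell into f2 and m2 above, and m3 and m4 below, all unstimulated values. Ifngr1, the ligand-binding chain of the interferon gamma receptor, went from 589.9, 573, 488 and 226 CPM to 83.9, 73.3, 13.9 and 47.8 CPM (-3.29 ± 0.47), or -2.67 with m3 left out of every group. Il7r fell from 76, 30, 30 and 80 reads to 0, 0, 6 and 0 reads, and all YFP+ reads came from m3. The receptor genes for IL-18 and IL-12 fell (Il18r1 by 2.02, Il12rb2 by 0.54, the latter with overlapping groups and not called without f2 of every group), and Cish, an inhibitor of cytokine signalling, rose by 2.19 ± 0.23.

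Negative feedback was not uniform. Of 31 genes 16 rose and 10 fell. Spry1, which restrains RAS signalling, had 3, 1, 6 and 0 and 111, 193, 127 and 171 reads, a ratio of 52.1 (95% exact interval 28.1 to 109). The NF-kappaB inhibitor Nfkbia rose by 1.94 ± 0.16 and the deubiquitinase Tnfaip3 (A20) by 1.09 ± 0.16. Zfp36, which destabilises cytokine messages, fell by 2.19, and the diacylglycerol kinase Dgka by 3.25. Among 15 tested TNF receptor genes 7 rose and 3 fell: Tnfrsf4 (OX40) had 5, 15, 21 and 14 and 2857, 2786, 1723 and 1777 reads, a ratio of 144 (95% exact interval 110.4 to 191). Tnfrsf9 (4-1BB) was higher on average but overlapped between groups, from 1149.5, 1159, 913 and 409.8 CPM to 3693, 3437, 1096 and 1822 CPM (1.42 ± 0.37; adjusted p = 0.0048, limma). Tnfrsf18 (GITR) was not called (0.1 ± 0.11).

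**Figure D3:**
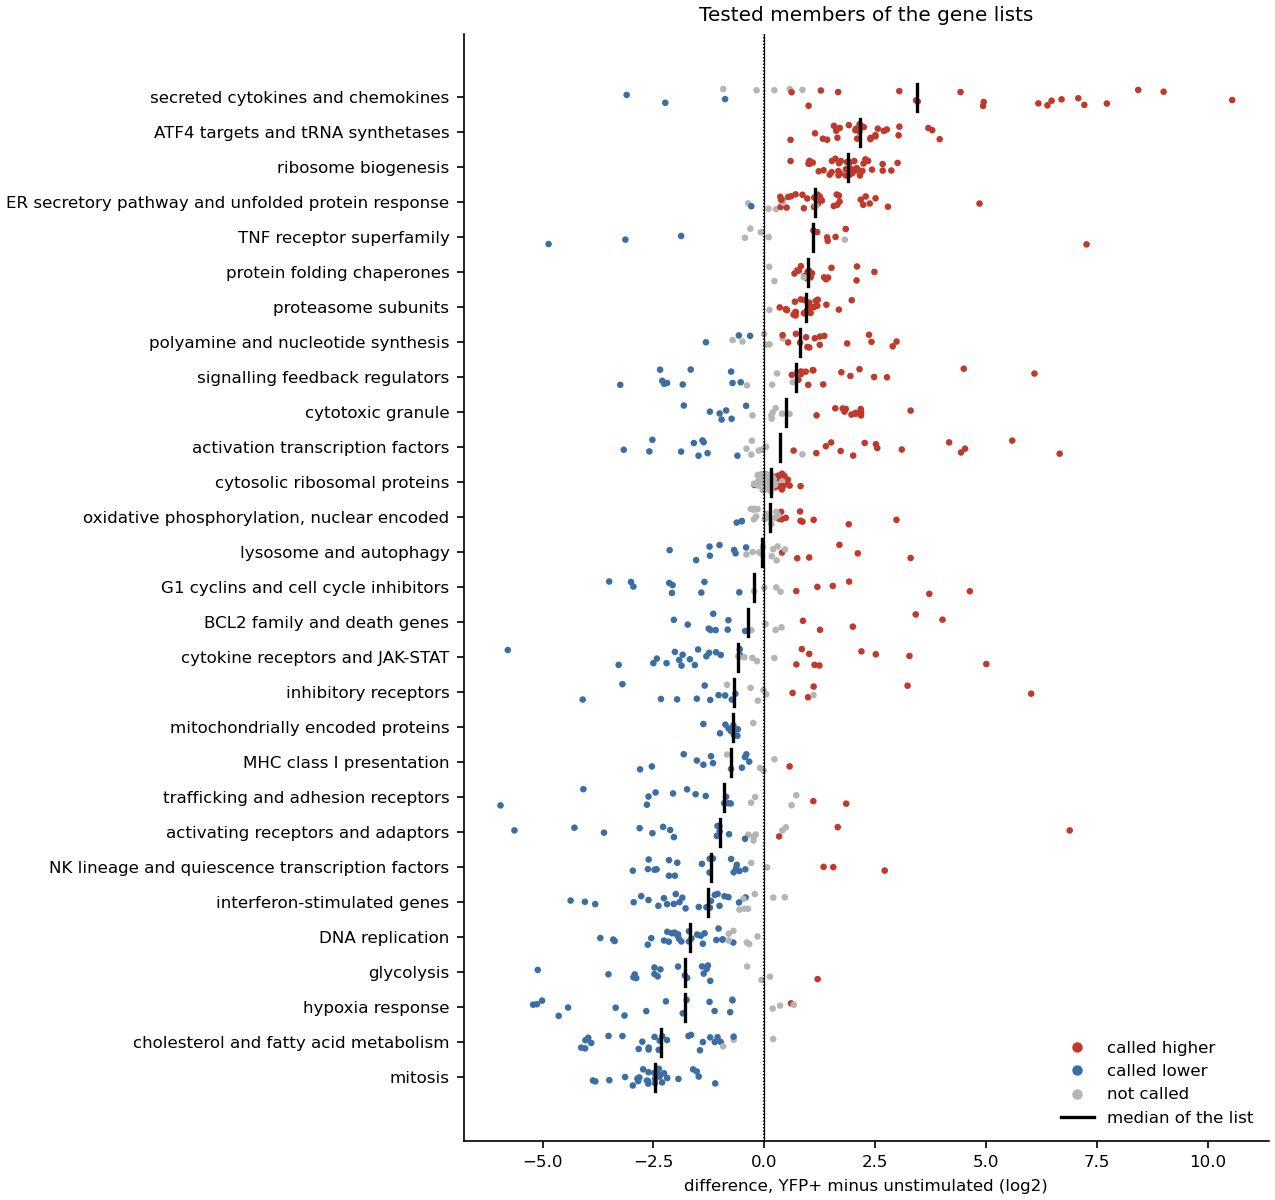
Difference in log2 between YFP+ and unstimulated samples for each tested member of 29 gene lists, ordered by the list's median (black bar); colour gives the call, and the dotted line the median of all genes tested. The medians of the mitosis, cholesterol and hypoxia lists lie lowest, all members of the ribosome biogenesis and ATF4 lists lie above 0, and receptor and transcription factor lists reach far to both sides.

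Interferon-stimulated genes were lower. Of 32 tested genes 25 were called lower in limma and 0 higher, with a median difference of -1.27. The count of 0 was also 0 at an unadjusted p under 0.05. It was 1 under trimmed-mean scaling, sample-median centring, quantile normalization and sample weights. Irf7, a master factor of interferon responses, read 38.98, 33.9, 38.1 and 41.2 CPM in unstimulated and 6.66, 5.01, 5.61 and 3.11 CPM in YFP+ samples (-2.95 ± 0.24; adjusted p = 1.8e-07, limma). The guanylate binding protein gene Gbp2 fell by 2.26. Oas3, which senses double-stranded RNA, had 52, 88, 71 and 54 reads in unstimulated and 2, 9, 16 and 0 reads in YFP+ libraries, a ratio of summed levels between unstimulated and YFP+ of 11.3 (95% exact interval 7.62 to 17.5). Isg15 was low in both groups (5.61, 6.997, 6.45 and 5.67 CPM and 5.33, 5.46, 7.65 and 3.55 CPM) and not called. Ifit1 and Ifit3 did not pass the filter on low values. In antigen presentation, 1 of 17 MHC class I genes was called higher and 12 lower. The immunoproteasome subunit gene Psmb9 fell from 116, 114, 114 and 136 CPM to 18.7, 17.1, 19.5 and 13.8 CPM (-2.8 ± 0.14), Nlrc5, the transactivator of class I genes, by 2.54 and the peptide transporter Tap1 by 1.2. The light chain B2m fell by 0.34, and H2-K1 was not called (-0.1 ± 0.15). The calls of Tap1 (without m3 or m4 of every group) and B2m (without m2 or m4 of every group, or unstimulated m4 alone) were lost.

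Glycolysis and the hypoxia response were among the most lowered programs. Of 21 glycolysis genes 17 fell and 1 rose (median -1.79), and their share of reads went from 3.3 ± 0.321% to 0.862 ± 0.198%, a ratio of 3.83 between unstimulated and YFP+ (exact permutation p = 0.029). Ldha, which makes lactate, went from 3974, 4117, 4253 and 3116 CPM to 1786, 1676, 1294 and 1262 CPM (-1.37 ± 0.13). Slc16a3 (MCT4), which exports lactate, fell from 383, 382, 362 and 210.4 CPM to 13.9, 15.6, 5.44 and 6.595 CPM (-5.11 ± 0.34; adjusted p = 3.8e-08, limma). The related transporter gene Slc16a1 (MCT1) rose by 1.2 ± 0.16, the single member called higher. Pdk1, which encodes a pyruvate dehydrogenase kinase, fell from 44.9, 43.4, 43.1 and 46.6 CPM to 2.88, 3.85, 3.98 and 5.102 CPM (-3.52 ± 0.21). Genes of the entry steps differed. Hk2 was not called (0.13 ± 0.17). Slc2a1 (GLUT1) was not called either, at -0.39 ± 0.44 with f2 and m2 above and m3 and m4 below all unstimulated values. The glucose transporter gene Slc2a3 (GLUT3) fell from 84.4, 93.4, 94.2 and 95.5 CPM to 36.7, 39.2, 37.2 and 38.95 CPM (-1.27 ± 0.13).

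Of 20 hypoxia response genes 15 fell and 1 rose (median -1.80). Bnip3, a mitophagy receptor, read 154, 185, 158 and 112 CPM and then 5.23, 5.604, 3.01 and 5.195 CPM (-5.01 ± 0.23). Ankrd37 read 41.97, 46.8, 47.1 and 57.7 CPM and 0.961, 1.12, 1.44 and 1.74 CPM (-5.21 ± 0.25), and Egln3, an oxygen-sensing prolyl hydroxylase, fell by 4.64. Hif1a itself read 24.2, 28.8, 26.5 and 26.8 CPM and 21.1, 25.6, 40.2 and 38.6 CPM and was not called (0.19 ± 0.2; adjusted p = 0.43, limma). Vegfa was the member that rose (0.6 ± 0.2), with overlapping groups. Its call was lost with no filter, with rRNA-like reads left out of the totals, and without replicate m2, m3 or m4 of every group.

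Mitochondrial genes differed by genome. All 13 proteins encoded in mitochondria together took 0.388 ± 0.0883% of unstimulated and 0.195 ± 0.0224% of YFP+ reads (exact permutation p = 0.029), and 10 of the 11 tested fell; the count of rises was 0 in limma, also at an unadjusted p under 0.05. The cytochrome oxidase subunit gene mt-Co1 went from 1201, 1727, 1915 and 1502 CPM to 737, 653, 519 and 527 CPM (-1.38 ± 0.19). The nuclear-encoded oxidative phosphorylation genes moved less: 10 of 28 rose and 3 fell, with a median of 0.12. With rRNA-like reads left out of the totals, 7 rose and 8 fell. Cycs (cytochrome c) rose by 1.9 ± 0.14, and Cox4i1, Atp5a1 and Sdha were not called.

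The machinery of protein production rose. All 38 ribosome biogenesis genes were called higher (median 1.89), and their share of reads went from 0.286 ± 0.0378% to 0.784 ± 0.116% (exact permutation p = 0.029). Pno1, a factor of small subunit maturation, had the largest rise, from 18.3, 20.3, 19.5 and 12.9 CPM to 142, 164, 100.5 and 165 CPM (3.01 ± 0.18). The box C/D RNA protein genes Fbl and Nop56 rose by 1.52 and 1.86, and Polr1b, a subunit of RNA polymerase I, by 2.04. Ribosomal protein genes moved little: 22 of 76 rose and 1 fell, with a median of 0.14, with rRNA-like reads left out 3 rose and 3 fell, and with quantile normalization 5 rose and 3 fell. Rpl5 had the largest rise among them, 0.82 ± 0.09.

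Amino acid supply rose with it. All 29 genes of the ATF4 response and of tRNA charging were called higher (median 2.16), and their share went from 0.191 ± 0.0401% to 0.973 ± 0.2901%. Asns, which makes asparagine, read 61.2, 68.98, 69.9 and 16.2 CPM in unstimulated and 972, 872, 234 and 692 CPM in YFP+ samples (3.7 ± 0.47; adjusted p = 1.4e-05, limma). Unstimulated m4 and YFP+ m3 were the low libraries of their groups for Asns, Psat1, Mthfd2 and Shmt2, genes of serine and folate metabolism, while the group ranges did not overlap. Without unstimulated m4 the list's median was 2.02, and without YFP+ m3 it was 2.48; all 29 were called in both cases. With m3 left out of every group the difference of Asns was 4.35. Atf4 itself rose by 1.42 ± 0.13, and the large amino acid transporter gene Slc7a5 by 2.51 ± 0.16.

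Protein folding and export genes rose in large part. In the endoplasmic reticulum secretory pathway 30 of 36 genes rose and 1 fell (Fkbp2, not called with any label left out of every group), and 17 of 20 tested chaperone genes rose. Hspa5 (BiP), the main chaperone of the endoplasmic reticulum, went from 298, 306, 293 and 162 CPM to 3638, 2519.7, 870.4 and 1237 CPM (2.79 ± 0.41), with unstimulated m4 and YFP+ m3 again the lowest of their groups. Fkbp11 had the largest rise (4.85 ± 0.31). The count of chaperones called higher was 11 when m4 was left out of every group, and 11 with no filter on low values. With rRNA-like reads left out of the totals, the chaperone share overlapped between groups (0.803 ± 0.146% of unstimulated and 1.25 ± 0.278% of YFP+ reads). Of 26 constitutive proteasome subunits 25 rose (median 0.94), Psmd14 from 135, 143, 147 and 119.6 CPM to 319, 315, 243 and 307 CPM (1.12 ± 0.12). In contrast, 3 immunoproteasome subunit genes fell: Psmb9 and, named after their values were seen, Psmb8 and Psmb10. In polyamine and nucleotide synthesis 16 of 25 rose and 3 fell. The list's share was 0.311 ± 0.018% of unstimulated and 0.357 ± 0.0412% of YFP+ reads (exact permutation p = 0.11), with overlapping groups. With rRNA-like reads left out of the totals, it was 0.449 ± 0.00752% and 0.449 ± 0.0188%. Srm (spermidine synthase) rose by 2.98 ± 0.18 and Odc1, the rate-limiting enzyme of polyamine synthesis, by 2.42 ± 0.15, while Sat1, which breaks polyamines down, fell by 1.32.

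Lipid synthesis was lower. Of 28 cholesterol and fatty acid genes 25 were called lower in limma and 0 higher, also 0 at an unadjusted p under 0.05 (median -2.33), with shares of 0.167 ± 0.0211% and 0.0467 ± 0.00839%. Fads2, a fatty acid desaturase, read 39.3, 43.6, 48.7 and 33.2 CPM in unstimulated and 1.82, 3.15, 2.65 and 1.898 CPM in YFP+ samples (-4.13 ± 0.23), with no overlap between the groups. Srebf2, the factor that drives cholesterol genes, fell by 1.45. Sqle was called lower at -1.22 with overlapping groups, and not called without m3 or m4 of every group or without YFP+ m3 alone.

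**Figure D4:**
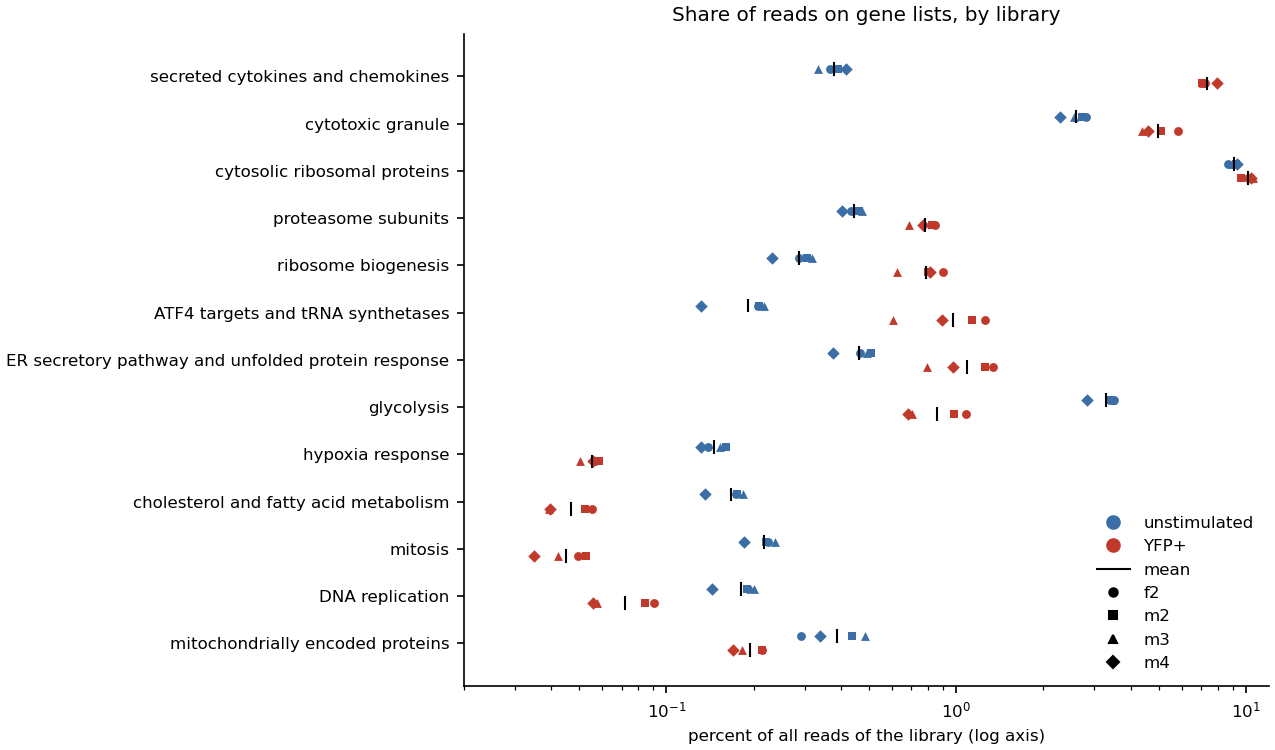
Percent of all reads of each library (log axis) on 13 gene lists, with 4 unstimulated (blue) and 4 YFP+ (red) libraries and their means (black bars). The groups are apart for every list drawn, but the lists drawn are a choice. Among lists not drawn, the groups overlap for activating receptors, cytokine receptors and TNF receptors. They also overlap for nuclear-encoded oxidative phosphorylation and for polyamine and nucleotide synthesis. Cytokines and chemokines gain most, and m3 is the lowest YFP+ library for ribosome biogenesis, ATF4 and secretory pathway genes. With rRNA-like reads left out of the totals, the groups overlap for cytosolic ribosomal proteins (13.1 ± 0.903% of unstimulated and 13.0 ± 1.64% of YFP+ reads).

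Proliferation genes were lower. All 30 mitosis genes fell (median -2.46), and of 32 DNA replication genes 26 fell in limma and 0 rose, also 0 at an unadjusted p under 0.05 (median -1.67). Mki67, the proliferation marker Ki-67, went from 76.6, 89.5, 121 and 89.7 CPM to 9.71, 10.5, 13.01 and 9.27 CPM (-3.14 ± 0.19), and Top2a, which untangles DNA in dividing cells, from 180.1, 194, 203 and 177 CPM to 30.04, 34.4, 34.4 and 18.1 CPM (-2.73 ± 0.2). Tk1, a thymidine kinase of S phase, fell by 3.7, whereas Pcna, the replication clamp, was not called (-0.15 ± 0.11). Of 19 cyclins and inhibitors of the G1 phase 6 rose and 9 fell (8 and 8 with trimmed-mean scaling or centring), and the D-type cyclins, which start the cycle, split. Ccnd3 fell from 252, 247, 253 and 267 CPM to 30.5, 38.6, 28.5 and 29.99 CPM (-3.01 ± 0.13), Ccnd2 rose from 337, 371, 383 and 317 CPM to 1173, 1044, 878 and 1022 CPM (1.54 ± 0.14), and Ccnd1 had 10, 13, 25 and 3 and 357, 545, 215 and 183 reads, a ratio of 22.1 (95% exact interval 16.7 to 29.8). The cycle inhibitors split too: Cdkn1a (p21) rose by 1.91 ± 0.14, while Cdkn1b (p27) fell by 2.15 and Cdkn2d (p19) by 3.5.

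Genes of the BCL2 family and of cell death, protective and pro-death together, rose in 5 of 18 cases and fell in 9. The protective Bcl2a1d rose by 4.02 ± 0.13 and Bcl2l1 (BCL-XL) by 2.0 ± 0.34, while Bcl2 fell by 0.81, a call lost without m2 of every group. The pro-death Bcl2l11 (BIM) rose by 0.87 ± 0.13, and Mcl1 was not called (0.03 ± 0.17). Lysosome and autophagy genes showed 6 rises and 8 falls among 24, shares near those of all genes; the counts were 8 and 7 with trimmed-mean scaling or centring, 5 and 11 with rRNA-like features out of the totals, and 8 and 8 without YFP+ m3. By biotype, 77 long non-coding RNA genes rose and 201 fell of 417 tested, and 3022 protein-coding genes rose and 3640 fell of 10416.

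The largest falls included genes of less known roles in NK cells. Pimreg, a mitotic regulator, went from 115, 108, 121 and 109.7 CPM to 2.8, 3.91, 4.12 and 2.58 CPM (-5.1 ± 0.2). Plekhf1 fell from 36.3, 30.6, 33.3 and 41.96 CPM to 1.001, 0.737, 0.773 and 0.124 CPM (-6.05 ± 0.47), with m4 the lowest YFP+ library, and the difference was -5.31 with m4 left out of every group. Pglyrp2, a peptidoglycan amidase, read 52.9, 50.1, 47.2 and 56.9 CPM and 1.27, 1.14, 0.691 and 0.871 CPM (-5.72 ± 0.2). Selenbp1, Cbfa2t3, Zfp395 and Bbs9 fell by 5.4, 5.19, 5.03 and 4.79. On the rising side, Anxa8, an annexin, went from 0.997, 0.973, 0.602 and 0.308 CPM to 146, 155, 54.2 and 99.1 CPM (7.3 ± 0.4), Bcat1, which degrades branched-chain amino acids, rose by 6.86 ± 0.42 (7.49 with m3 left out of every group), and Arc, known as an activity-regulated neuronal gene, by 5.97 ± 0.48.

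The YFP- samples, stimulated but without reporter signal, give a further level for the same genes. They share the fit, and any difference from the unstimulated group uses the same unstimulated samples. The YFP- values are therefore set side by side here without a comparison of the differences. Ifng read 44.8, 54.5, 36.6 and 47.2 CPM in YFP- samples, Ccl4 read 11357, 11082, 9909 and 15525 CPM and Klrb1c read 76.6, 86.6, 57.6 and 80.5 CPM; all 3 lay between the unstimulated and YFP+ ranges given above. Il2ra read 302, 287, 217 and 347 CPM, with 3 of 4 values above every YFP+ value. Tcf7 read 27.6, 38.8, 24.5 and 22.2 CPM, above both other groups. The cytokine and chemokine list took 3.39 ± 0.525% of YFP- reads, and the glycolysis list 1.11%.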

How the data were processed

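RNA of 12 NK cell samples was sequenced in 3 groups of 4, from 10 ng of total RNA per sample per the labels' protocols. The deposited table holds moderated log2 CPM values that the authors computed per gene and sample; the submitters' processing notes name bcl2fastq, STAR 2.7.9a, Subread and featureCounts 2.0.3, and the build GRCm38. Whether counting used strand is not given in the sources used here, so antisense partners cannot be told apart. Of 55774 lines, 287 repeated ones were dropped, which left 55487 features. Whole reads were recovered from the deposited log2 values for 100% of values within 0.001, with a prior of 0.5 reads at the mean library total of 40.7 M reads, and the CPM and library totals printed come from these reads.

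The 12 samples were fitted in limma 3.58.1 (R 4.3.3) with group as the only term and an intensity trend, over 12364 genes with log2 CPM above 0 in at least 4 samples. Calls had a Benjamini-Hochberg adjusted p under 0.05. No count model was run. Single summed shares were compared by exact permutation over all 70 regroupings of 4 against 4. Ratios of few reads carry exact 95% intervals for counting error only.

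The members and gene lists were chosen with earlier results of these data known. Named genes were the 12 largest rises and 12 largest falls at a mean log2 CPM of at least 2 that kept their direction in all 4 same-label pairs, fixed anchors of each list, and the largest called rise and fall of each list. Genes outside that rule are marked as named after their values were seen. Cell type markers are given mostly as counts, with some members named. Alternatives changed the filter, pseudocount, scaling, trend, weights, samples in the fit and replicates.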

Additional observations from a re-analysis of the deposited data

Results flagged for a closer look

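In groups of 4, a sample was singled out when its gap to the nearest other sample exceeded 0.829 of the group's range (Dixon's ratio, on log2 CPM). This held for 27 of 408 gene and group values, where chance gives about 1 in 20, or 20.4; 15 of the 27 were unstimulated m4.

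Unstimulated m4 was the lowest of its group for genes of amino acid supply, folding and ribosome assembly, with ratios of 0.909 for Asns, 0.947 for Mthfd2, 0.886 for Shmt2, 0.968 for Psat1, 0.930 for Hspa5, 0.850 for Cct3 and 0.850 for Nop56. It was also lowest for Pdcd1 (0.892), Bcl2l1 (0.841), Irf8 (0.974), Impdh2 (0.918), Slc2a1 (0.916) and Slc16a3 (0.908). It was highest for Nfkbia (0.925) and Psmb9 (0.881). Unstimulated f2 was lowest for Batf (0.912) and highest for Bbs9 (0.830).

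Among YFP+ samples, m4 was lowest for B2m (0.959), Cdk1 (0.907), Ccnb2 (0.860) and Plekhf1 (0.849), and highest for Btg1 (0.974). YFP+ m3 was lowest for Psmd14 (0.858) and Bnip3 (0.878). It was highest for Il7r, with a ratio of 1 because the other 3 libraries had 0 reads. YFP+ f2 was lowest for Srm (0.858) and Fasn (0.906).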

How the results depend on the processing

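Of 201 named gene results, 137 kept their direction and side of the threshold under all 18 alternatives. Of 3612 single values, 118 lost the call, 57 gained it and 37 changed sign, the latter all in genes that were not called. The share of calls that were higher was 45.2%, and became 43.2% with no filter, 47.9% with log2 CPM above 2, 49.9% with trimmed-mean scaling, 52.1% with centring on the sample median, 51.7% with quantile normalization, 36.8% with rRNA-like features out of the totals, 40.2% at an absolute log2 change of at least 1 and 49.1% with sample weights. Leaving out replicates gave 43.2% to 49.4%. The median change over all genes was 0.10 with centring and -0.22 with rRNA-like features out. Calls numbered 4547 at an absolute log2 change of at least 1 and 6464 to 7399 when one replicate label was left out of every group. Added after seeing the data, leaving out unstimulated m4 alone gave 7051 calls; leaving out YFP+ m3 alone gave 7791.

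Sign changes were as follows, in log2. Trimmed-mean scaling gave Impdh2 0.074 and Batf 0.030. Centring gave Impdh2 0.12, Batf 0.074 and H2-K1 0.026. Quantile normalization gave Rplp0 -0.011, Rpl13 -0.15, Tnfrsf18 -0.073, Tigit -0.13, Mcl1 -0.13 and Isg15 0.050. With rRNA-like features out, Hif1a was -0.0013, Rplp0 -0.030, Hk2 -0.063, Rpl13 -0.070, Tnfrsf18 -0.091, Cox4i1 -0.098, Tigit -0.15 and Mcl1 -0.16. Sample weights gave H2-K1 0.030, Sdha 0.15, Il2rb 0.12 and Slc2a1 0.063. Leaving out replicates spanned -0.059 to 0.25 for Tigit, -0.11 to 0.14 for Impdh2, -0.035 to 0.15 for Mcl1, -0.45 to 0.27 for Sdha, -0.0062 to 0.21 for Hk2, -0.19 to 0.065 for Batf and -0.18 to 0.020 for H2-K1. The cause was not tested.

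The labels do not say that equal labels mark one animal. Deviations of same-label samples correlated at 0.375, 0.092, -0.042 and 0.137 for f2, m2, m3 and m4, and 2 of 4 unstimulated samples correlated best with their own label. With the label as a replicate block, 7774 genes were called, 7425 of them shared with the fit without it.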

Other observations

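Several genes below the level used for naming, chosen here after their values were seen, were near silent in the unstimulated libraries. Wnt1, a secreted signalling protein, had 2, 2, 5 and 0 reads in unstimulated f2, m2, m3 and m4 and 1513, 3219, 675 and 773 reads in the YFP+ libraries. The chemokine gene Cxcl17 had 0, 0, 0 and 0 and 537, 423, 208 and 214 reads, and the growth factor gene Fgf18 0, 0, 0 and 0 and 194, 387, 216 and 292 reads. Cd70, a ligand of the TNF family, had 6, 2, 2 and 2 and 1022, 964, 648 and 591 reads.

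Other genes chosen in the same way were lower. Tgfb3, a growth factor of the TGF-beta family, had 59, 48, 59 and 34 reads and then 0, 0, 0 and 0 reads. Tmem119, best known as a microglia marker, went from 2996, 2991, 1879 and 940 reads to 0, 31, 4 and 1 reads, with m2 the highest YFP+ library. Mgarp, which encodes a mitochondrial protein, went from 1021, 1347, 1060 and 899 to 7, 30, 6 and 6 reads.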
